A study of Mus musculus with 24 samples.

Results

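The genes described here are 35 genes of the endoplasmic reticulum (ER) that fold, modify and export procollagen or signal when unfolded protein accumulates. They comprise 8 collagen modifiers, 15 ER chaperones and folding or quality-control factors, 5 genes of COPII vesicles and collagen export, and 7 sensors and transcription factors of the stress response. They were taken by gene name, and all 35 were found among the 22053 protein-coding rows of the deposited table. Mia3 occupies 2 rows under one identifier, one over the 3′ and one over the 5′ part of the gene, so that 36 rows carry values. All 36 passed the filter on low values, FPKM (fragments scaled by transcript length and library size) of at least 1 in at least 4 libraries, as did 11768 rows in all.

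Fibrillar procollagen is made on ER-bound ribosomes as a chain that must be hydroxylated on proline and lysine before it can wind into a stable triple helix. Prolyl hydroxylases, each a P4ha subunit with the P4hb disulfide isomerase, stabilise the helix, Plod lysyl hydroxylases prepare cross-links, and Hsp47, encoded by Serpinh1, holds the finished helix until it leaves the ER. BiP (Hspa5), Grp94 (Hsp90b1), the lectin chaperones and the disulfide isomerases fold chains and globular domains, and COPII coats with Tango1 (Mia3) export the rigid helix. When unfolded protein accumulates, 3 sensors answer: Atf6, Ire1 (Ern1), which splices Xbp1 mRNA, and Perk (Eif2ak3), whose pathway induces Chop (Ddit3). Cartilage and bone-forming cells secrete much collagen and are known for a large ER and for skeletal disease when Serpinh1, Plod2, Creb3l1, Sec23a or Sec24d is mutated.

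The libraries come from skeletal stem or progenitor cells sorted from male mice at postnatal day 10 whose genotype is given as WT. Every group was negative for CD45, CD31, TER119, 6C3, Thy and CD105 and positive for CD200, and was then split by embigin (EMB), a surface glycoprotein. Spine cells were further split by GFP, which the design text equates with a Zic1-Cre history (Zic1 is a transcription factor of the dorsal somite), into vertebral GFP+ EMB+, GFP+ EMB-, GFP- EMB+ and GFP- EMB- cells. Femur and tibia gave GFP- EMB+ and GFP- EMB- cells, called long bone cells here. The labels do not name the reporter allele. Each of the 6 groups has 4 libraries that the titles call biological replicates, with no mention of separate animals, so p-values measure the spread between libraries. The titles of the long bone EMB+ libraries all carry the same replicate number. Their replicate numbers here follow the sample order, and the labels do not pair them with anything. The 4 vertebral GFP- EMB+ libraries carry titles that read GFP+ and EMB-, against their cell type label. Their groups here follow that label, and leaving them out is an alternative given where it changes a call.

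Emb RNA stood at 30.1 to 56.5 FPKM in the EMB+ libraries, those 4 included, and at 0.238 to 1.32 FPKM in the EMB- libraries. Zic1 RNA was at 0 to 0.108 FPKM in those 4 and at 0 to 0.0647 FPKM in vertebral GFP- EMB- libraries. It was at 1.51 to 2.39 FPKM in vertebral GFP+ EMB+ and 0.349 to 1.39 FPKM in GFP+ EMB- libraries. The cartilage genes Sox9 (159 to 614 FPKM), Acan (214 to 646 FPKM) and Col2a1 (21745.5 to 54283.1 FPKM) were high in all 24 libraries. Matn1, another cartilage gene, was at 327 to 629 FPKM in long bone libraries. At the spine it was at 16.6 to 45.6 FPKM in EMB+ and 3.01 to 7.67 FPKM in EMB- libraries. The defining markers of the excluded types Thy1 (at most 0.1004 FPKM), Ptprc (at most 1.80 FPKM) and Pecam1 (at most 4.05 FPKM) were low as single genes. The osteoblast factor gene Sp7 was at 46.0 to 80.5 FPKM in EMB+ and 6.08 to 27.6 FPKM in EMB- libraries. Summed over 10 leukocyte genes, FPKM was 439.9 to 3310.2 in vertebral GFP- EMB+ against 137 to 559.7 in GFP- EMB- libraries, 14.1 to 209.9 against 41.9 to 82.1 in vertebral GFP+ and 108 to 758 against 170.3 to 619.8 in long bone cells. Summed over 5 osteoclast genes it was higher with EMB in all 3 comparisons, at 48.6 to 64.8 against 34.3 to 42.6 FPKM in vertebral GFP+, 62.5 to 92.4 against 27.0 to 36.1 FPKM in vertebral GFP- and 148 to 206 against 103 to 134 FPKM in long bone cells. The part of either in the EMB differences below was not tested. Hemoglobin genes took 6.88% ± 1.74 (SD, n = 4) of summed FPKM in long bone EMB- and 2.34% ± 0.485 in vertebral GFP- EMB- libraries, although TER119 was used to remove erythroid cells. Summed FPKM ranged from 382382 to 568501, and 10159 to 11205 genes reached 1 FPKM in a library. Read depth is unknown, since the table holds FPKM only. On GRCm38 the genes described most lie as follows: Serpinh1 at chr7:99345376-99353239 (-), Hspa5 at chr2:34771970-34777547 (+), P4ha2 at chr11:54100095-54131665 (+), Plod2 at chr9:92542223-92608428 (+) and Ddit3 at chr10:127290774-127296288 (+).

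Before the values, the sequences that the chaperone genes share are shown. The members were chosen as known ER genes, so the shares of windows describe them and are not a test. Members are counted by gene and the background by window. The ER stress response element (ERSE), to which Atf6 is known to bind with NF-Y, is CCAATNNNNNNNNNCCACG, and ERSE-II is ATTGGNCCACG. Both strands of the window from 250 bases before to 50 after each RefSeq gene start (build GRCm38.p6) were searched, and 30 of the 35 genes have a window. ERSE or ERSE-II lies in 9 of 13 chaperone windows (69.2%), in 0 of 7 modifier windows, 0 of 5 COPII and export windows and 0 of 5 sensor and factor windows, against 51 of 32851 windows of all genes (0.155%). The matches are written 5′ to 3′ on the strand that reads the motif, with the motif's fixed bases in capitals.
Hspa5, chr2:34772025-34772043 (+): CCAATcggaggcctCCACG
Pdia6, chr12:17266491-17266509 (+): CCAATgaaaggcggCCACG
Calr, chr8:84847075-84847093 (+, opposite to the gene): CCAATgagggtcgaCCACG
Canx, chr11:50325800-50325818 (-): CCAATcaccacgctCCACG
Hsp90b1, chr10:86705638-86705656 (-): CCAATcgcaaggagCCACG
Hsp90b1, chr10:86705533-86705551 (+, opposite to the gene): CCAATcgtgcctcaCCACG
Dnajc3, chr14:118937827-118937845 (+): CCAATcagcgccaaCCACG
Creld2, chr15:88819520-88819538 (-, opposite to the gene): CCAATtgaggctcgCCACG
Herpud1, ERSE-II, chr8:94386377-94386387 (+): ATTGGgCCACG
Dnajb11, ERSE-II, chr16:22857852-22857862 (+): ATTGGcCCACG

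ERSE alone is in 0.119% of all windows and in 7 of the 30 member windows, and ERSE-II is in 0.0365% of all windows and in 2 member windows. The core of the element read by Xbp1, TGACGTG, lies in the windows of Hspa5, Mia3, Sec23a and Sec24d and in 2.01% of all windows. The element TTGCATCA, a composite for Atf4 and Chop, lies in the window of Herpud1 and in 0.895% of all. A match describes letters and not a bound site.

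As deposited, some members of each of the 4 roles were higher in EMB+ than in EMB- cells at both sites. By median-ratio scaling, few COPII or sensor and factor rows stayed higher at the spine (counts by role below). The chaperones Hspa5, Pdia6 and Calr were higher in all 3 EMB comparisons as deposited and by median-ratio and quantile scaling. In vertebral GFP+ cells 24 of 36 rows were higher and 3 lower in EMB+ cells at an adjusted p of 0.05, against 42.1% higher and 7.85% lower among all tested genes. In vertebral GFP- cells 21 were higher and 4 lower, against 41.7% and 10.6%, and in long bone 20 were higher and 1 lower, against 17.5% and 16%. The median log2 difference of the members was 0.46, 0.44 and 0.46 in these comparisons, beside 0.32, 0.30 and 0.08 over all tested genes. As this shift of all genes is large at the spine, each vertebral difference is to be read against it. After scaling by median ratios, which removes the shift, 7 rows were higher and 7 lower in GFP+ vertebral cells (12.9% and 14.6% of all genes). In GFP- vertebral cells 9 were higher and 7 lower (15.3% and 19.7%), and in long bone 20 and 1 (12.2% and 18.3%). Fitted on its 2 groups alone, long bone had 10 higher rows (7.53% of the genes tested there). That fit lost the long bone calls of P4hb, P4ha1, Plod3, Hspa5, Pdia3, Calr, Canx, Sec23a, Sec31a and the 5′ row of Mia3. Rescaling without hemoglobin genes left 13 higher in vertebral GFP- cells (25.5% of all genes). The calls that held as deposited, by median ratios and after quantile normalization were 7 higher rows in GFP+ cells (12.7% of all genes met this), 8 in GFP- cells (15.2%) and 20 in long bone (12.1%). These are log2(FPKM + 1) differences from one limma fit over all 24 libraries, given with the standard error (SE) and a Benjamini-Hochberg adjusted p, and in sorted bulk RNA fewer cells of a type and less RNA per cell cannot be told apart.

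**Figure D1:**
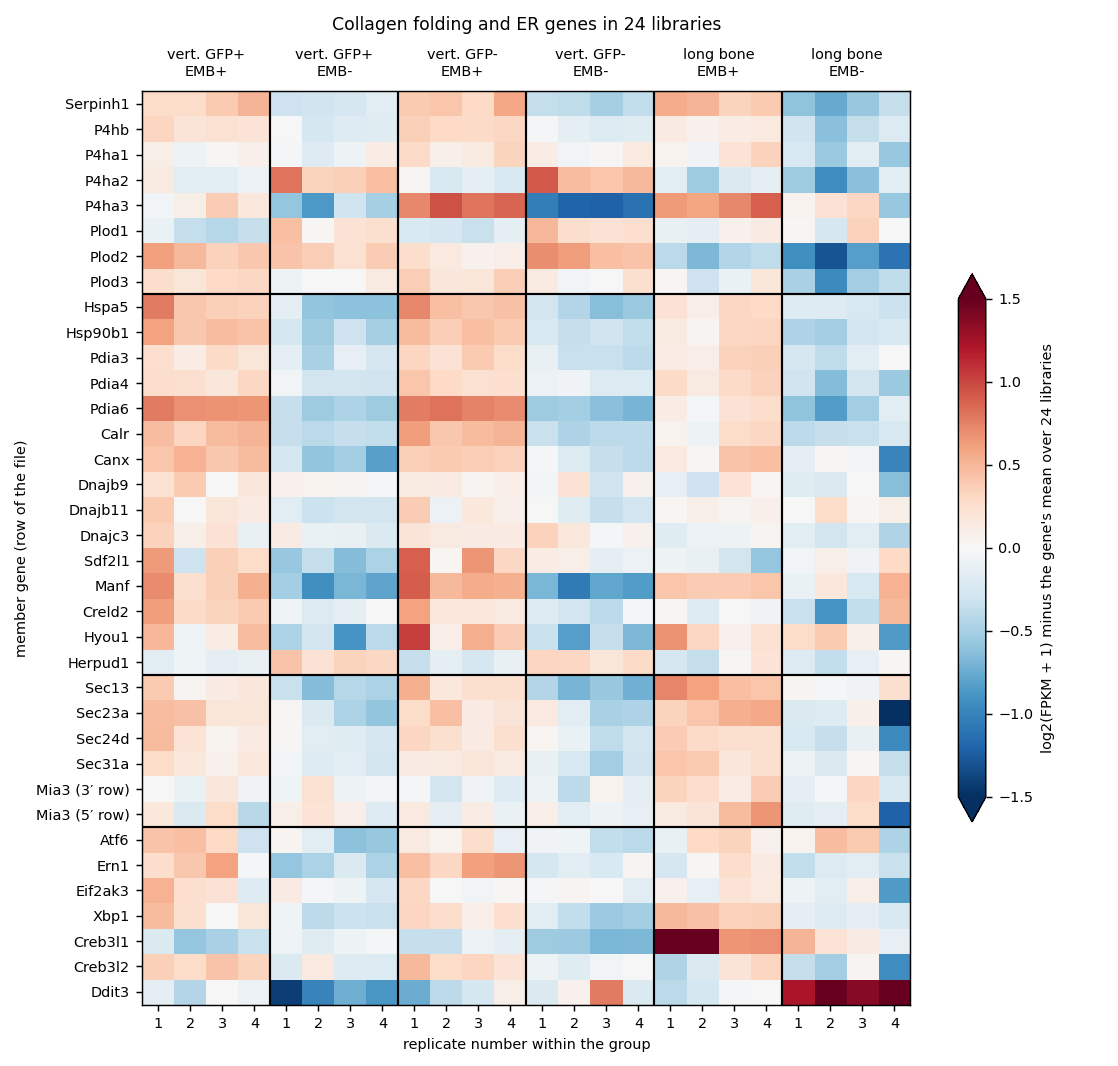
Levels of the 36 member rows in 24 libraries, as log2(FPKM + 1) minus the mean of that gene over all libraries, with genes grouped by role (lines between roles) and libraries by sorted group. Most rows are above their mean in the 12 EMB+ libraries, and Ddit3 is highest in the 4 long bone EMB- libraries.

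Among the collagen modifiers, Serpinh1, P4hb and P4ha3 were higher in EMB+ cells in all 3 comparisons, while P4ha2 and Plod1 were lower in EMB+ cells at the spine and were not called in long bone. Serpinh1, the collagen-specific chaperone, was the most abundant member and ranked 34th of 11768 genes by mean FPKM. It stood at 1351, 1354, 1463 and 1587 FPKM in vertebral GFP+ EMB+ and at 902, 911, 936 and 999.9 FPKM in GFP+ EMB- libraries. In GFP- vertebral cells it was at 1466, 1486, 1380.3 and 1670.3 FPKM with EMB and 875, 859, 792 and 862 FPKM without. Long bone gave 1639.9, 1590.5, 1404 and 1465 FPKM in EMB+ and 735, 659, 750.5 and 875 FPKM in EMB- libraries. Every EMB+ library of the 12 lay above every EMB- library. The log2 difference was 0.62 ± 0.11, adjusted p = 5.86e-05, in GFP+ vertebral cells, 0.82 ± 0.11, adjusted p = 9.68e-07, in GFP- vertebral cells and 1.02 ± 0.11, adjusted p = 4.64e-08, in long bone. With median-ratio scaling the GFP+ vertebral value was 0.23 (adjusted p = 0.104) and was not called, whereas the other 2 were.

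The prolyl hydroxylase subunits did not move as one. P4ha2 was at 169.4, 137, 138 and 146 FPKM in vertebral GFP+ EMB+ against 270.2, 195, 198 and 211 FPKM in GFP+ EMB- libraries. In GFP- vertebral cells it was at 156, 132, 139 and 132 FPKM in EMB+ and 293, 213, 207 and 218 FPKM in EMB- libraries. Both vertebral pairs were separate, with differences of -0.56 ± 0.15, adjusted p = 0.00345, and -0.72 ± 0.15, adjusted p = 0.000282, and both held under these 3 scalings. In long bone, with 138, 107, 133 and 140.3 FPKM in EMB+ and 107, 80.3, 99.5 and 137 FPKM in EMB- libraries, the groups overlapped and the difference was 0.31 ± 0.15, adjusted p = 0.117. Replicate 4 was the highest of that EMB- group. P4ha3, the subunit at the lowest level, went the other way: it was at 11.7, 14.0, 12.48 and 13.2 FPKM in vertebral GFP- EMB+ and 2.77, 2.38, 2.33 and 2.56 FPKM in GFP- EMB- libraries, a difference of 1.98 ± 0.15, adjusted p = 1.44e-10. It was at 6.54, 7.25, 9.08 and 7.66 against 4.17, 3.24, 5.27 and 4.46 FPKM in GFP+ vertebral cells (0.71 ± 0.15, adjusted p = 0.000552) and at 11.1, 10.6, 11.8 and 13.4 against 7.04, 8.001, 8.59 and 4.22 FPKM in long bone (0.71 ± 0.15, adjusted p = 0.000831). With median-ratio scaling the GFP+ value was 0.39 and missed the threshold (adjusted p = 0.0932). P4ha1, the most widely expressed subunit, passed only in long bone, where it was higher by 0.52 ± 0.11, adjusted p = 0.000766, and with median ratios it was lower in GFP+ vertebral cells (-0.31, adjusted p = 0.0382). P4hb was higher in EMB+ cells by 0.40, 0.45 and 0.48 in the 3 comparisons, but with median ratios it was not called at the spine (0.01 and 0.04).

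Lysyl hydroxylases also split. Plod1, which acts on helical lysines, was at 100.05, 83.5, 80.0 and 84.7 FPKM in vertebral GFP+ EMB+ and 147, 109, 125 and 127 FPKM in GFP+ EMB- libraries, and at 92.0, 90.1, 85.3 and 97.4 against 152, 129.8, 125 and 128 FPKM in GFP- vertebral cells. The EMB+ groups lay wholly below the EMB- groups, by -0.54 ± 0.12, adjusted p = 0.000769, and -0.55 ± 0.12, adjusted p = 0.000579. In long bone the groups overlapped at 99.3, 97.3, 113 and 117 and 109, 89.98, 137 and 108 FPKM (-0.05 ± 0.12, adjusted p = 0.806). Plod2, which hydroxylates telopeptide lysines, changed direction with the cells. It was lower in EMB+ cells of the GFP- vertebral comparison, at 246, 225, 213 and 218 against 330.2, 315, 279 and 276 FPKM (-0.41 ± 0.11, adjusted p = 0.00371). In long bone it was higher, at 153, 128, 150.3 and 156 against 108, 82.5, 114 and 94.2 FPKM (0.56 ± 0.11, adjusted p = 0.000301). In GFP+ vertebral cells it overlapped, at 312, 286, 259.7 and 269 against 275, 264, 239 and 267 FPKM (0.11 ± 0.11, adjusted p = 0.436). Plod3 was called in long bone (0.54 ± 0.12, adjusted p = 0.000856), and with the replicate block in both vertebral comparisons as well.

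The ER chaperones had the largest median difference of the 4 roles at the spine. Of 15, 12 were higher and 1 lower in EMB+ cells in each vertebral comparison, and 7 were higher and 0 lower in long bone, with medians of 0.76, 0.60 and 0.35. With median ratios the counts were 6 higher and 1 lower, 6 and 2, and 7 and 0. Over all tested genes, 42.1%, 41.7% and 17.5% were higher and 7.85%, 10.6% and 16% lower as deposited. With median ratios these shares were 12.9%, 15.3% and 12.2% higher and 14.6%, 19.7% and 18.3% lower. Hspa5, which encodes the main ER chaperone BiP, was at 507, 392, 378 and 375 FPKM in vertebral GFP+ EMB+ and 268, 196, 193 and 192.3 FPKM in GFP+ EMB- libraries. In GFP- vertebral cells the values were 489, 405, 391 and 401 FPKM and 245, 218, 189.04 and 201 FPKM, and in long bone 345, 318, 366 and 364 FPKM and 258, 259, 251 and 237 FPKM. No EMB+ library fell among the EMB- libraries of its comparison, and replicate 1 was the highest of its group in all 4 vertebral groups. The differences were 0.96 ± 0.13, adjusted p = 1.08e-06, 0.98 ± 0.13, adjusted p = 6.15e-07 and 0.47 ± 0.13, adjusted p = 0.00541. When only the 2 long bone groups were fitted, the last had an adjusted p of 0.05995.

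Pdia6, a disulfide isomerase that acts with BiP, was more than 2-fold higher in EMB+ vertebral cells: 299, 280.4, 278 and 276 against 138, 119.9, 127 and 120.3 FPKM with GFP and 299, 307, 293 and 287 against 120.4, 122, 112 and 107 FPKM without. In long bone it was at 188.8, 171.4, 202 and 209.8 against 115, 97.4, 121 and 155 FPKM, still without overlap. The differences were 1.16 ± 0.11, adjusted p = 8.68e-09, 1.35 ± 0.11, adjusted p = 4.57e-10 and 0.67 ± 0.11, adjusted p = 3.93e-05. Manf, a secreted ER stress protein that binds BiP, had the largest chaperone difference at the spine. It was at 115, 82.3, 89.2 and 101.3 against 48.4, 36.3, 42.9 and 39.7 FPKM with GFP (1.19 ± 0.14, adjusted p = 2.85e-07) and at 131, 97.9, 103 and 100.8 against 42.9, 32.9, 40.2 and 38.6 FPKM without (1.46 ± 0.14, adjusted p = 7.04e-09). In long bone the EMB+ libraries stood at 93.1, 90.9, 90.9 and 93.2 FPKM and the EMB- libraries at 64.8, 77.9, 58.6 and 100.6 FPKM, which overlap (0.31 ± 0.14, adjusted p = 0.0937).

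Calnexin (Canx), the membrane lectin chaperone, was at 97.7, 105, 96.9 and 102 FPKM in vertebral GFP+ EMB+ and 60.6, 48.2, 50.4 and 41.0 FPKM in GFP+ EMB- libraries, separate groups (1.00 ± 0.16, adjusted p = 2.05e-05). Canx differed by 0.61 ± 0.16, adjusted p = 0.00311, in GFP- vertebral cells and by 0.55 ± 0.16, adjusted p = 0.0103, in long bone, and with median ratios the former was not called (0.20). Hyou1, the BiP nucleotide exchange factor, was low: 6.93, 3.14, 4.62 and 4.04 FPKM in vertebral GFP- EMB+ and 2.06, 1.17, 2.04 and 1.42 FPKM in GFP- EMB- libraries (1.06 ± 0.23, adjusted p = 0.0005). Calreticulin (Calr) was higher by 0.81, 0.90 and 0.47 and Grp94 (Hsp90b1) by 0.88, 0.74 and 0.58, each past the test in all 3 comparisons. Fitted on the long bone groups alone, the long bone calls of Calr and Canx were lost. Pdia3 (0.46, 0.60 and 0.42) and Pdia4 (0.47, 0.44 and 0.70) were also called in all 3, but with median ratios in long bone alone.

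Herpud1, a membrane protein of ER-associated degradation, was the chaperone-group member lower in EMB+ vertebral cells. It was at 126, 136, 129 and 131 against 191.9, 164.4, 178 and 176.1 FPKM with GFP and at 112, 129, 119 and 131 against 177, 177, 160.6 and 172.9 FPKM without, with no overlap (-0.44 ± 0.11, adjusted p = 0.00256, and -0.49 ± 0.11, adjusted p = 0.000965). In long bone it was at 119, 111, 144 and 163.7 against 123, 109.7, 131 and 144 FPKM and overlapped (0.07 ± 0.11, adjusted p = 0.661). The BiP cofactors Dnajb9 and Dnajc3 passed in none of the 3 comparisons, with differences of 0.01 to 0.21. With median ratios Dnajc3 was lower in GFP- vertebral cells (-0.39). The co-chaperone Dnajb11 (0.43 and 0.34) and Creld2, a disulfide isomerase-like protein (0.52 and 0.49), passed at the spine as deposited but not with median ratios, and not in long bone.

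**Figure D2:**
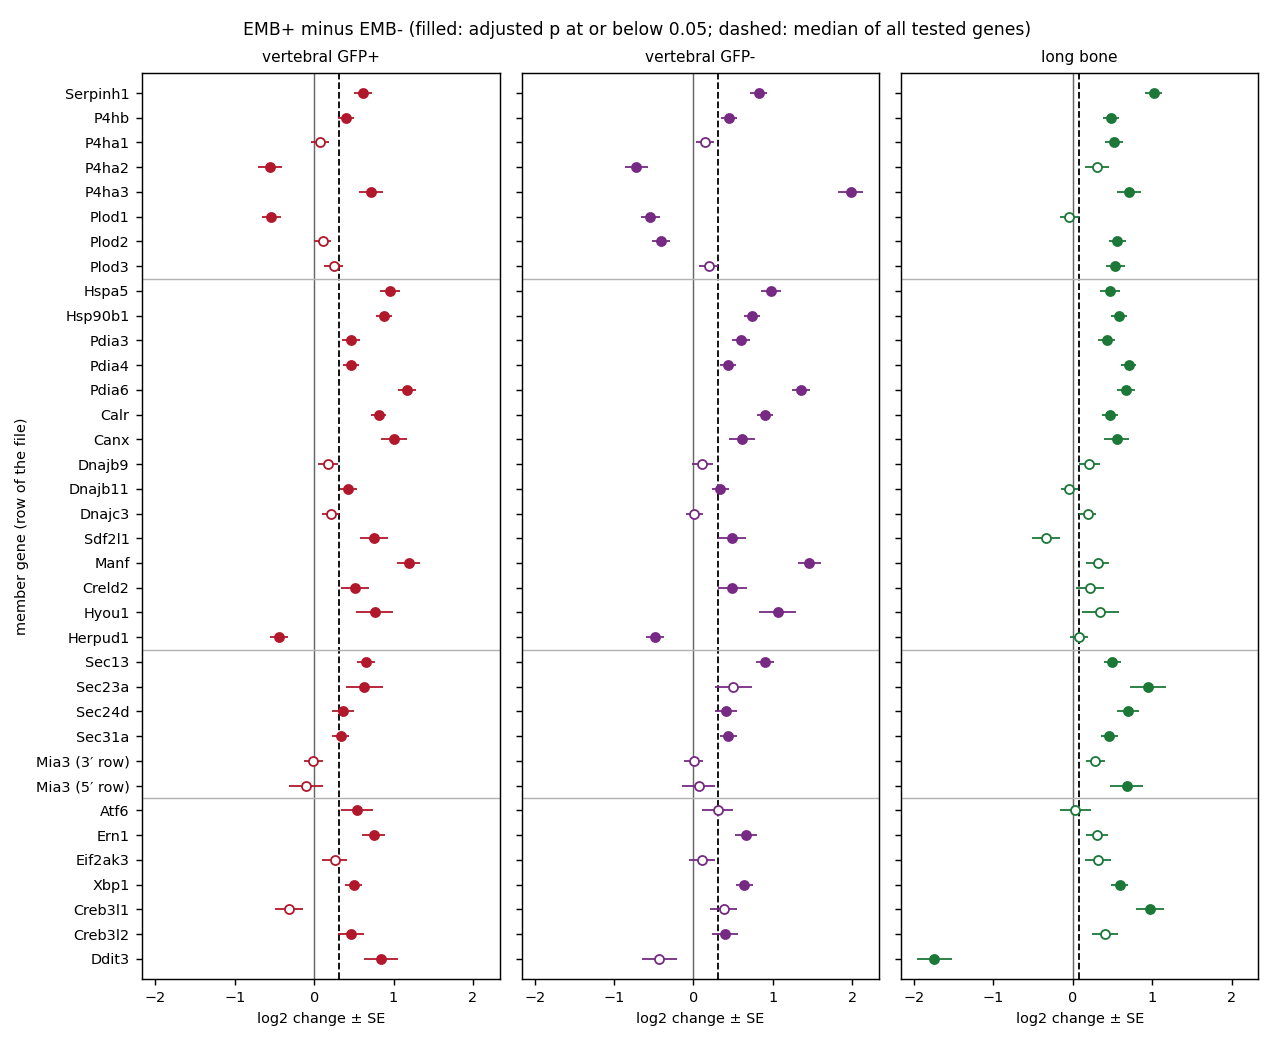
Log2 difference of FPKM + 1 between EMB+ and EMB- cells for the 36 member rows in vertebral GFP+, vertebral GFP- and long bone cells, with bars of 1 SE from the limma fit over 24 libraries. Filled points passed an adjusted p of 0.05, the dashed line is the median of all 11768 tested genes (0.32, 0.30 and 0.08), and P4ha3 in vertebral GFP- cells (1.98) and Ddit3 in long bone (-1.74) lie farthest from 0.

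Among the 9 chaperones with ERSE or ERSE-II in the window shown above, 7 were higher and 1, Herpud1, was lower in each vertebral comparison (medians 0.81 and 0.61), and 5 were higher in long bone (median 0.47). Of the 4 whose window holds neither, 3, 3 and 2 were higher (medians 0.46, 0.46 and 0.32). Hyou1 and Manf have no window in the table. With 9 and 4 genes these medians are a description only. The shares over all tested genes were 42.1%, 41.7% and 17.5% higher and 7.85%, 10.6% and 16% lower.

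COPII coat genes were higher in EMB+ cells in long bone under these 3 scalings, and at the spine as deposited. Of the 6 rows, 4, 3 and 5 were higher and 0 lower. All tested genes had shares of 42.1%, 41.7% and 17.5% higher and 7.85%, 10.6% and 16% lower. With median ratios 0, 1 and 5 rows were higher and 1, 1 and 0 lower. The shares of all genes were then 12.9%, 15.3% and 12.2% higher and 14.6%, 19.7% and 18.3% lower. Sec13, an outer coat subunit, was called in all 3 (0.65, 0.90 and 0.50), as were Sec24d, the cargo adaptor (0.36, 0.41 and 0.70), and Sec31a (0.33, 0.44 and 0.46). Sec23a, the inner coat subunit with a known role in collagen export, was at 60.4, 63.9, 69.4 and 71.6 FPKM in long bone EMB+ and 40.9, 41.7, 50.3 and 15.2 FPKM in EMB- libraries (0.94 ± 0.23, adjusted p = 0.00225). One EMB- library, replicate 4, was far below the others, and without it the difference was 0.57 (adjusted p = 0.00206). Fitted on the 2 long bone groups alone, Sec23a had an adjusted p of 0.0557. For Tango1 (Mia3), the collagen receptor at ER exit sites, the 3′ row passed in no EMB comparison (-0.01, 0.00 and 0.28), and with median ratios it was lower in both vertebral comparisons (-0.39 and -0.40). The 5′ row passed in long bone only, at 16.6, 17.4, 21.4 and 24.4 against 13.2, 13.7, 18.5 and 5.91 FPKM (0.68 ± 0.21, adjusted p = 0.0144), and replicate 4 of the EMB- group was again the lowest. That call was lost without replicate 4 of either group and when only the compared groups were fitted.

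Of the 7 sensors and factors of the stress response, 5, 3 and 2 were higher and 0, 0 and 1 lower in the 3 EMB comparisons. The shares of all tested genes were 42.1%, 41.7% and 17.5% higher and 7.85%, 10.6% and 16% lower. With median ratios 1, 0 and 2 of the 7 were higher and 1, 1 and 1 lower. All genes then had 12.9%, 15.3% and 12.2% higher and 14.6%, 19.7% and 18.3% lower. Xbp1, whose mRNA is the substrate of Ire1, was at 127, 108, 90.5 and 104 against 87.5, 69.2, 72.7 and 72.4 FPKM in GFP+ and 114, 110.1, 97.7 and 109 against 80.6, 70.1, 62.0 and 63.6 FPKM in GFP- vertebral cells. Long bone gave 128, 123, 116 and 117 FPKM in EMB+ and 82.0, 78.9, 82.2 and 77.3 FPKM in EMB- libraries. All 3 pairs were separate (0.50 ± 0.11, adjusted p = 0.000585, 0.64 ± 0.11, adjusted p = 2.84e-05 and 0.59 ± 0.11, adjusted p = 0.000126), but with median ratios the vertebral calls were lost (0.11 and 0.23, adjusted p = 0.483 and 0.0797). Gene-level FPKM does not tell spliced from unspliced Xbp1. Ire1 itself (Ern1) was higher at the spine (0.75 and 0.66), Atf6 in GFP+ vertebral cells (0.54 ± 0.20, adjusted p = 0.0264), and Perk (Eif2ak3) in none of the 3 (0.26, 0.10 and 0.32). With median ratios only the GFP+ call of Ern1 remained among these vertebral calls (0.49), and its GFP- value was 0.37 (adjusted p = 0.0506). The Atf6 call was also lost without any one of 5 of the 8 libraries compared.

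Creb3l1 (Oasis), a membrane-bound factor known to drive Col1a1 in osteoblasts, was at 158, 174.3, 84.8 and 86.3 FPKM in long bone EMB+ and 76.4, 61.6, 58.0 and 48.8 FPKM in EMB- libraries (0.97 ± 0.18, adjusted p = 0.000111). Replicates 1 and 2 of the EMB+ group were well above replicates 3 and 4, and all 4 were above the EMB- group. In vertebral GFP+ cells it was at 45.7, 35.4, 37.9 and 42.2 against 51.2, 47.1, 50.6 and 52.5 FPKM (-0.32 ± 0.18, adjusted p = 0.132), and in GFP- cells at 41.7, 41.9, 50.3 and 48.4 against 36.7, 36.4, 32.8 and 33.1 FPKM (0.38 ± 0.18, adjusted p = 0.0734). The groups were separate but in opposite directions, and neither passed the test. With the replicate number as a block they did (adjusted p = 0.0304 and 0.0116). The GFP+ difference was also called with median ratios (-0.70, adjusted p = 0.00667) and quantile normalization (-0.66, adjusted p = 0.00691). Its paralog Creb3l2, a factor for COPII genes in chondrocytes, was higher by 0.46 and 0.40 in the vertebral comparisons and by 0.40 ± 0.16, adjusted p = 0.0557, in long bone, where it was not called, and with median ratios it was called in none of the 3. The GFP- call was lost without any one of 7 of the 8 libraries.

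Ddit3, which encodes the stress factor Chop, had a different pattern in each comparison. In vertebral GFP+ cells it was higher with EMB, at 13.7, 10.9, 15.1 and 14.1 against 5.06, 7.03, 8.73 and 7.83 FPKM (0.84 ± 0.22, adjusted p = 0.00261). In vertebral GFP- cells it overlapped, at 8.603, 11.3, 12.46 and 16.1 against 12.9, 15.8, 26.6 and 12.9 FPKM (-0.43 ± 0.22, adjusted p = 0.0973). In long bone it was lower with EMB, at 11.2, 12.4, 14.98 and 14.998 against 36.6, 72.2, 40.5 and 44.9 FPKM (-1.74 ± 0.22, adjusted p = 5.12e-07). The EMB+ libraries spanned 8.603 to 16.1 FPKM at both sites, and the EMB- groups ranged from 5.06 FPKM in GFP+ vertebral to 72.2 FPKM in long bone cells. With median ratios the GFP+ call was lost (0.49, adjusted p = 0.116) and the GFP- difference was called at -0.81 (adjusted p = 0.00591), as it was with the replicate block (adjusted p = 0.0495). The summed FPKM of 10 erythroid genes had the same order of EMB- groups: 272 to 989 in vertebral GFP+, 7510 to 12710.5 in vertebral GFP- and 20835.8 to 43942.1 in long bone, against 127 to 560 in the EMB+ libraries. None of the 10 was called in vertebral GFP+ cells and all 10 were lower with EMB in each of the others. The 4 muscle genes followed in long bone EMB- (326 to 808 FPKM, 29.1 to 104 elsewhere), and the part of such RNA in the Ddit3 values was not tested.

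**Figure D3:**
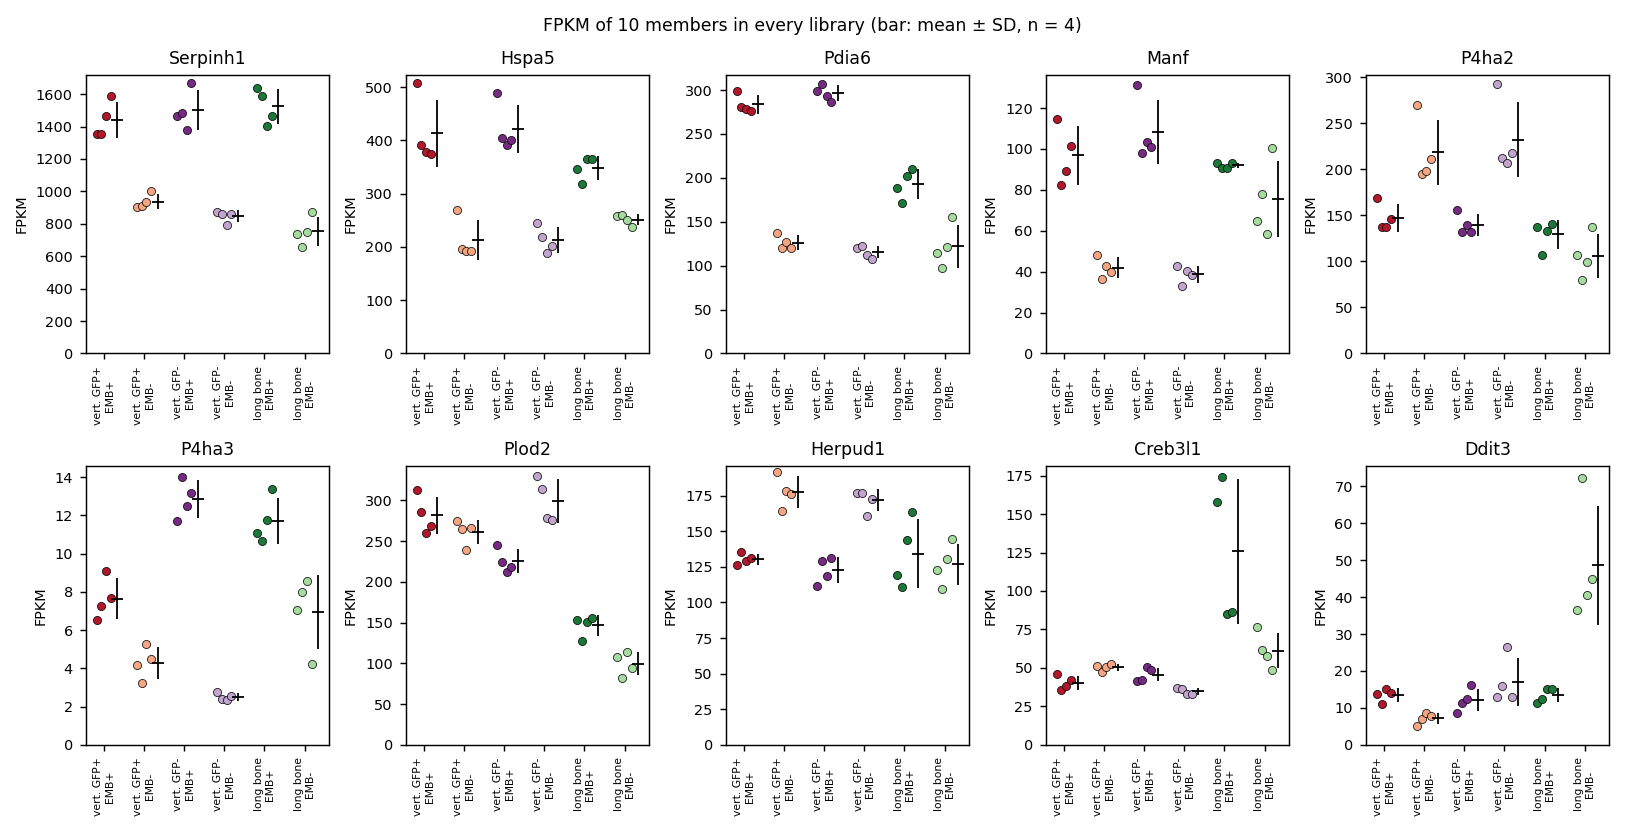
FPKM in every library for 10 members, with the 6 groups on the x axis, each point a library and each bar the group mean with 1 SD (n = 4). Serpinh1 separates EMB+ from EMB- groups at both sites, Plod2 is lowest in the long bone groups, Creb3l1 is highest in long bone EMB+ and Ddit3 in long bone EMB- libraries.

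The members took 1.33% ± 0.0555 (SD, n = 4) of summed FPKM in vertebral GFP+ EMB+ and 1.07% ± 0.0604 in GFP+ EMB- libraries, 1.32% ± 0.0447 and 1.05% ± 0.0770 in GFP- vertebral libraries, and 1.27% ± 0.0213 and 0.798% ± 0.103 in long bone. To set the folding genes beside their client within a library, where a scaling factor of the library cancels, levels were divided by the summed FPKM of 18 collagen chains (55502 to 72469 FPKM in a library). The mean of that sum was lower with EMB in vertebral GFP+ (58445 against 70332 FPKM) and GFP- cells (59138 against 68492 FPKM). In long bone it was 64234.5 against 59714 FPKM, with overlapping libraries. A ratio can thus differ through the collagen sum as well as through the folding gene. These ratios were chosen after values had been seen, and 30 such comparisons were tested together by exact two-sided permutation, where 4 against 4 libraries cannot go below 0.0286 (0.0390 adjusted). Per 100 FPKM of collagen, Serpinh1 stood at 2.46 ± 0.135 in vertebral GFP+ EMB+ against 1.33 ± 0.0756 in GFP+ EMB- libraries, at 2.54 ± 0.184 against 1.24 ± 0.0845 in GFP- vertebral cells and at 2.37 ± 0.0775 against 1.27 ± 0.204 in long bone. All 3 pairs were separate (exact permutation p = 0.0286). Between vertebral GFP+ and long bone cells the ratio overlapped in both EMB states (exact permutation p = 0.371 and 0.6). Hspa5 per 100 FPKM of collagen was 0.708 ± 0.120 against 0.303 ± 0.0582, 0.713 ± 0.0777 against 0.312 ± 0.0447 and 0.546 ± 0.0709 against 0.422 ± 0.0242 in the 3 EMB comparisons, each separate. Unlike that of Serpinh1, the Hspa5 ratio was separate between vertebral GFP+ and long bone cells in both EMB states (exact permutation p = 0.0286 for each). It was higher in vertebral GFP+ cells with EMB and lower without.

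P4ha2 made up 49.6% ± 1.94 of the 3 P4ha genes' FPKM in vertebral GFP+ EMB+ and 61.0% ± 3.53 in GFP+ EMB- libraries, and 44.6% ± 2.32 against 61.0% ± 3.33 in GFP- vertebral cells (exact permutation p = 0.0286 for each). In long bone its share was 43.9% ± 2.185 against 47.9% ± 7.18 (exact permutation p = 0.371). Replicate 4 of the EMB- group had 58.5%, and the others had 43.0% to 46.2%. P4ha1 held nearly all of the rest. Among the 3 Plod genes, Plod2 made up 70.1% ± 0.932 in vertebral GFP+ EMB+ and 62.8% ± 2.25 in GFP+ EMB- libraries, and 52.4% ± 1.53 against 43.6% ± 1.61 in long bone, both separate. In GFP- vertebral cells it was 64.4% ± 1.61 against 64.7% ± 1.51 (exact permutation p = 0.8).

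**Figure D4:**
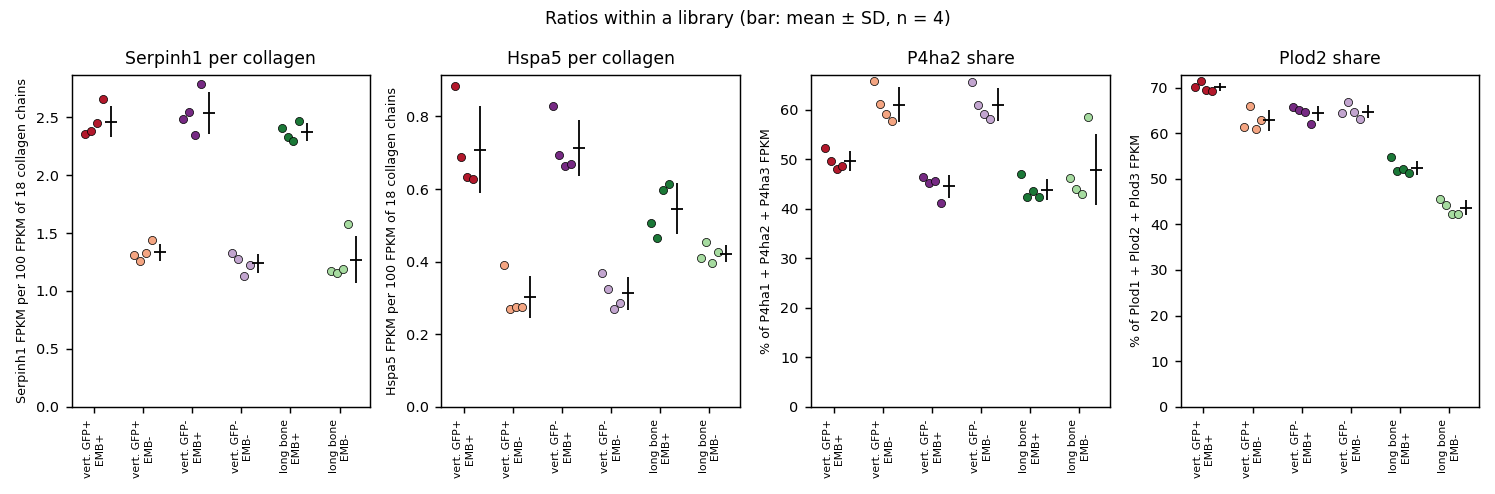
Within-library ratios in each of 24 libraries by group: Serpinh1 and Hspa5 per 100 FPKM of 18 collagen chains, P4ha2 as a percent of the 3 P4ha genes and Plod2 as a percent of the 3 Plod genes, with group means and 1 SD (n = 4). The Serpinh1 ratio is between 2.29 and 2.78 in every EMB+ library and between 1.13 and 1.58 in every EMB- library.

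The clients and the neighbouring machinery of the ER were taken from lists. Among all tested genes, 42.1%, 41.7% and 17.5% were higher in the vertebral GFP+, vertebral GFP- and long bone comparisons as deposited. Lower were 7.85%, 10.6% and 16%. With median ratios, 12.9%, 15.3% and 12.2% were higher and 14.6%, 19.7% and 18.3% lower. The list counts are to be read beside these shares. Of 18 collagen chain genes, 8, 8 and 5 were higher and 7, 6 and 2 lower in EMB+ cells in the vertebral GFP+, vertebral GFP- and long bone comparisons (7, 7 and 5 higher and 8, 10 and 4 lower with median ratios). Col10a1, the collagen of hypertrophic cartilage, was at 122 ± 26.6 against 2.75 ± 1.10 FPKM in vertebral GFP+ cells (5.06 ± 0.33, adjusted p = 1.47e-11). The fibril-associated Col14a1 was at 5.40 ± 0.780 against 42.6 ± 2.65 FPKM (-2.77 ± 0.19, adjusted p = 1.72e-11). Of 16 ER translocation genes, 11, 13 and 11 were higher and none lower, and 3, 6 and 6 were higher and 2, 1 and 0 lower with median ratios. The translocon channel gene Sec61a1 was higher by 0.69, 1.09 and 0.89. Among 20 other collagen modification and processing genes, 10, 12 and 12 were higher and 2, 1 and 0 lower, and with median ratios 5, 7 and 9 and 7, 4 and 0. Of these, Loxl4, a lysyl oxidase that cross-links collagen outside the cell, differed by 2.91 ± 0.22, adjusted p = 1.67e-10, in vertebral GFP+ cells and 3.36 ± 0.22, adjusted p = 7.65e-12, in GFP- cells.

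Of 14 other ER folding genes 7, 10 and 7 were higher and 1, 2 and 0 lower, led by the isomerase Pdia5 (1.24 ± 0.12, adjusted p = 6.76e-09, in vertebral GFP+ cells, and called in all 3 under median ratios too). Of 14 other COPII and ER exit genes 8, 12 and 10 were higher and none lower, with the cargo receptor Lman1 at 0.90, 1.00 and 0.80, and 2, 2 and 7 were higher with median ratios. Of 13 degradation genes 7, 8 and 3 were higher and 1, 1 and 0 lower, and with median ratios 2, 1 and 0 were higher and 3, 2 and 0 lower. The 13 Perk and Atf4 target genes went otherwise: 4, 2 and 3 were higher and 1, 6 and 5 lower, with medians of 0.17, -0.22 and -0.31, and with median ratios 2, 2 and 3 were higher and 2, 9 and 6 lower. Among them the serine synthesis genes Psat1 (1.08, 1.46 and 1.70) and Phgdh (0.78, 0.85 and 0.86) were higher. Trib3, a pseudokinase induced by Chop, was lower in vertebral GFP- cells, at 1.90 ± 1.27 against 11.3 ± 5.44 FPKM (-2.06 ± 0.31, adjusted p = 6.94e-06). Ppp1r15a, the phosphatase subunit that relieves Perk signalling, was lower in long bone, at 91.1 ± 14.5 against 259.6 ± 57.5 FPKM (-1.49 ± 0.14, adjusted p = 5.98e-09). The groups in which these 2 were highest are those with high erythroid sums, and the part of that RNA was not tested.

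Whether EMB cells differed in the same way at each site was tested as the difference between EMB differences. Larger and smaller refer throughout to the signed value of EMB+ minus EMB-, not to its size. Plod1 and Herpud1, lower with EMB at the spine and not called in long bone, thus count as smaller there. Vertebral GFP+ and long bone cells share no library, and neither do GFP- vertebral and long bone cells. The comparisons of GFP+ and of GFP- vertebral cells against long bone use the same long bone libraries, so they are not independent. Against long bone, the vertebral GFP+ difference was larger in 6 rows and smaller in 8 (25% and 5.58% of all genes), and the vertebral GFP- difference was larger in 7 and smaller in 4 (24.7% and 5.06%). P4ha2, Plod1, Plod2 and Herpud1 were smaller and Ddit3 and Manf larger in both, under all 3 scalings. Plod1 lost the call without any one of 7 of the 16 libraries for GFP+ and of 5 for GFP- cells, and Plod2 without any one of 7 for GFP+ cells. The EMB difference of P4ha2 was smaller by -0.86 ± 0.21, adjusted p = 0.00253 in GFP+ and -1.03 ± 0.21, adjusted p = 0.00068 in GFP- vertebral cells. For Manf the values were 0.88 ± 0.20, adjusted p = 0.00154, and 1.15 ± 0.20, adjusted p = 0.000141, and for Ddit3 2.58 ± 0.31, adjusted p = 3.15e-07, and 1.31 ± 0.31, adjusted p = 0.00214. Creb3l1 was smaller in GFP+ vertebral cells (-1.29 ± 0.25, adjusted p = 0.00026), and the GFP- value was -0.59 ± 0.25, adjusted p = 0.0754, which was called with median ratios (-0.90, adjusted p = 0.0198), quantile normalization (-0.93, adjusted p = 0.0102) and the replicate block (adjusted p = 0.011). Sdf2l1, a BiP cofactor, was at 17.8, 8.83, 14.6 and 13.7 against 7.18, 8.48, 6.72 and 7.72 FPKM in GFP+ vertebral cells and at 21.5, 11.4, 18.2 and 14.0 against 12.1, 11.9, 9.96 and 10.4 FPKM in GFP- vertebral cells. In long bone it was at 10.6, 10.3, 9.02 and 7.13 against 10.8, 11.9, 10.7 and 13.9 FPKM, where the EMB+ libraries were the lower ones. Its difference of differences was 1.09 ± 0.25, adjusted p = 0.00151 and 0.81 ± 0.25, adjusted p = 0.0161, the latter not called with median ratios (0.51, adjusted p = 0.151).

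Serpinh1 (-0.40 ± 0.15, adjusted p = 0.0494), Hspa5 (0.49 ± 0.18, adjusted p = 0.0378) and the 5′ row of Mia3 (-0.78 ± 0.30, adjusted p = 0.0481) were also called for GFP+ vertebral against long bone. Each lost the call when any of several libraries was left out, long bone EMB- replicate 1 among them for all 3, with adjusted p = 0.0778, 0.0607 and 0.0504. Refitted without the 4 libraries with conflicting labels, which enter only through the shared spread, they had adjusted p = 0.0715, 0.0518 and 0.0683. With median ratios Hspa5 was not called (0.19), and the Mia3 value was -0.48 without long bone EMB- replicate 4. For GFP- vertebral against long bone, Hspa5 (0.51 ± 0.18, adjusted p = 0.0314) and Calr (0.43 ± 0.14, adjusted p = 0.0194) were called as deposited, but not with median ratios (0.19 and 0.11, adjusted p = 0.454 and 0.568) or quantile normalization (0.13 and 0.05, adjusted p = 0.726 and 0.85), and Hspa5 lost the call without any one of 5 of the 16 libraries. The smaller GFP+ difference of P4ha1 lost the call without any one of 7 of the 16 libraries. It was also lost without the 4 libraries with conflicting labels and when only the compared groups were fitted. The larger GFP+ differences of Pdia6 and Dnajb11 were not called with median ratios (0.19 and 0.18) or quantile normalization (0.24 and 0.07), nor was that of Pdia6 in GFP- cells with quantile normalization (0.26). Between GFP+ and GFP- vertebral cells the EMB difference was larger in 1 row and smaller in 1 (3.2% and 1.67% of all genes). These were Ddit3 (1.27 ± 0.31, adjusted p = 0.011) and P4ha3 (-1.27 ± 0.22, adjusted p = 0.000413). With the replicate block Plod2 (0.51) and Creb3l1 (-0.70, adjusted p = 0.013) passed too, and Plod2 also did with median ratios (0.54) and quantile normalization (0.69).

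GFP+ and GFP- vertebral cells of the same EMB state differed in few members. Among EMB+ cells 0 rows were higher and 1 lower in GFP+ (0.391% and 1.71% of all genes), and among EMB- cells 1 was higher and 1 lower (2.25% and 6.22%). Blocking by replicate gave 1 higher and 1 lower among EMB+ cells. P4ha3 was lower in GFP+ EMB+ than in GFP- EMB+ cells (-0.69 ± 0.15, adjusted p = 0.0117) and higher in GFP+ EMB- than in GFP- EMB- cells (0.58 ± 0.15, adjusted p = 0.0159), with no overlap of the libraries given above. The first call was lost without vertebral GFP+ EMB+ replicate 1 (adjusted p = 0.0594), and the second without replicate 3 of GFP+ EMB- (adjusted p = 0.0803) or of GFP- EMB- (adjusted p = 0.0512). Ddit3 was lower in GFP+ EMB- than in GFP- EMB- cells (-1.11 ± 0.22, adjusted p = 0.000806), beside erythroid sums of 272 to 989 against 7510 to 12710.5 FPKM, whose part was not tested. Serpinh1, Hspa5, Xbp1 and Creb3l1 were not called in either state. Their differences were -0.06, -0.03, -0.01 and -0.17 in EMB+ and 0.15, -0.01, 0.13 and 0.52 in EMB- cells. With the replicate block Creb3l1 passed in EMB- cells (adjusted p = 0.00535).

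Between the spine and the long bones, Plod2 was the member that differed in every comparison and was higher in vertebral cells each time, under these 3 scalings. Its group means were 282 ± 23.1 FPKM (SD, n = 4) in vertebral GFP+ EMB+, 225 ± 14.5 FPKM in GFP- EMB+ and 147 ± 13.1 FPKM in long bone EMB+ cells. Without EMB the means were 261 ± 15.3, 299.7 ± 27.0 and 99.6 ± 14.1 FPKM in the same order. The differences to long bone were 0.94 ± 0.11, adjusted p = 4.54e-07, and 0.62 ± 0.11, adjusted p = 0.00018, with EMB, and 1.39 ± 0.11, adjusted p = 1.54e-10, and 1.59 ± 0.11, adjusted p = 3.18e-11, without. Each vertebral library was above each long bone library of its EMB state.

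Counts in the site comparisons were small with EMB: 4 rows higher and 3 lower in vertebral GFP+ (8.65% and 12.9% of all genes) and 5 and 2 in vertebral GFP- cells (8.49% and 10.6%). Creb3l1 was lower at the spine by -1.55 ± 0.18, adjusted p = 2.17e-07 and -1.37 ± 0.18, adjusted p = 1.87e-06, with the libraries as listed above and no overlap. Pdia6 was higher there by 0.56 ± 0.11, adjusted p = 0.000548, and 0.62 ± 0.11, adjusted p = 0.000189. P4ha3 was lower in vertebral GFP+ cells (-0.56 ± 0.15, adjusted p = 0.00894). Sdf2l1, Calr and Sec13 passed for GFP+ (0.50, 0.30 and -0.37), and Sdf2l1, Calr, Ern1 and Mia3 for GFP- cells (0.73, 0.36, 0.47 and -0.41). Of these, the GFP+ calls of Sdf2l1, Calr and Sec13 and the GFP- calls of Ern1 and Mia3 were each lost when any one of 2 or more libraries was left out, with adjusted p up to 0.182, 0.114, 0.0788, 0.0873 and 0.0591. Serpinh1 (-0.08 and -0.02), Hspa5 (0.24 and 0.27), Xbp1 (-0.18 and -0.17) and Ddit3 (0.01 and -0.15) were not called, although Serpinh1 was called lower at the spine after quantile normalization (-0.53 and -0.49).

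Without EMB, 6 rows were higher and 6 lower in vertebral GFP+ (7.4% and 40.4% of all genes) and 7 and 6 in vertebral GFP- cells (8.05% and 40.2%). The median of all genes was lower at the spine by -0.27 and -0.28. With median ratios, 21 and 17 rows were higher (17.1% and 15.9% of all genes) and 2 and 5 lower (23.9% and 22.6%). P4ha2 was higher at the spine by 1.05 ± 0.15, adjusted p = 2.2e-06, and 1.14 ± 0.15, adjusted p = 1.06e-06, as were Plod3 (0.60 and 0.67) and Herpud1 (0.49 and 0.44). Ddit3 was lower by -2.57 ± 0.22, adjusted p = 3.41e-10, and -1.47 ± 0.22, adjusted p = 5.39e-06, and Manf by -0.81 and -0.92, under all 3 scalings, while the long bone EMB- libraries held the erythroid and muscle RNA described above. P4ha3 was also lower (-0.57 and -1.15), Sdf2l1 in GFP+ (-0.59) and Creb3l1 in GFP- cells (-0.78). With median ratios the GFP+ values of P4ha3 (-0.31) and Sdf2l1 (-0.31) were not called. After quantile normalization the GFP- value of Creb3l1 was not called (-0.40, adjusted p = 0.0803). Serpinh1 was higher in vertebral GFP+ cells (0.32 ± 0.11, adjusted p = 0.0184), a call lost without GFP+ EMB- replicate 4 (adjusted p = 0.0569) or long bone EMB- replicate 2 (adjusted p = 0.0707), and it was not called in GFP- cells (0.17), where median ratios gave 0.46 (adjusted p = 0.00076). Hspa5 (-0.26 and -0.24) and Xbp1 (-0.09 and -0.22) were not called, and quantile normalization gave Xbp1 a positive, called value in GFP+ cells (0.35, adjusted p = 0.0166).

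**Figure D5:**
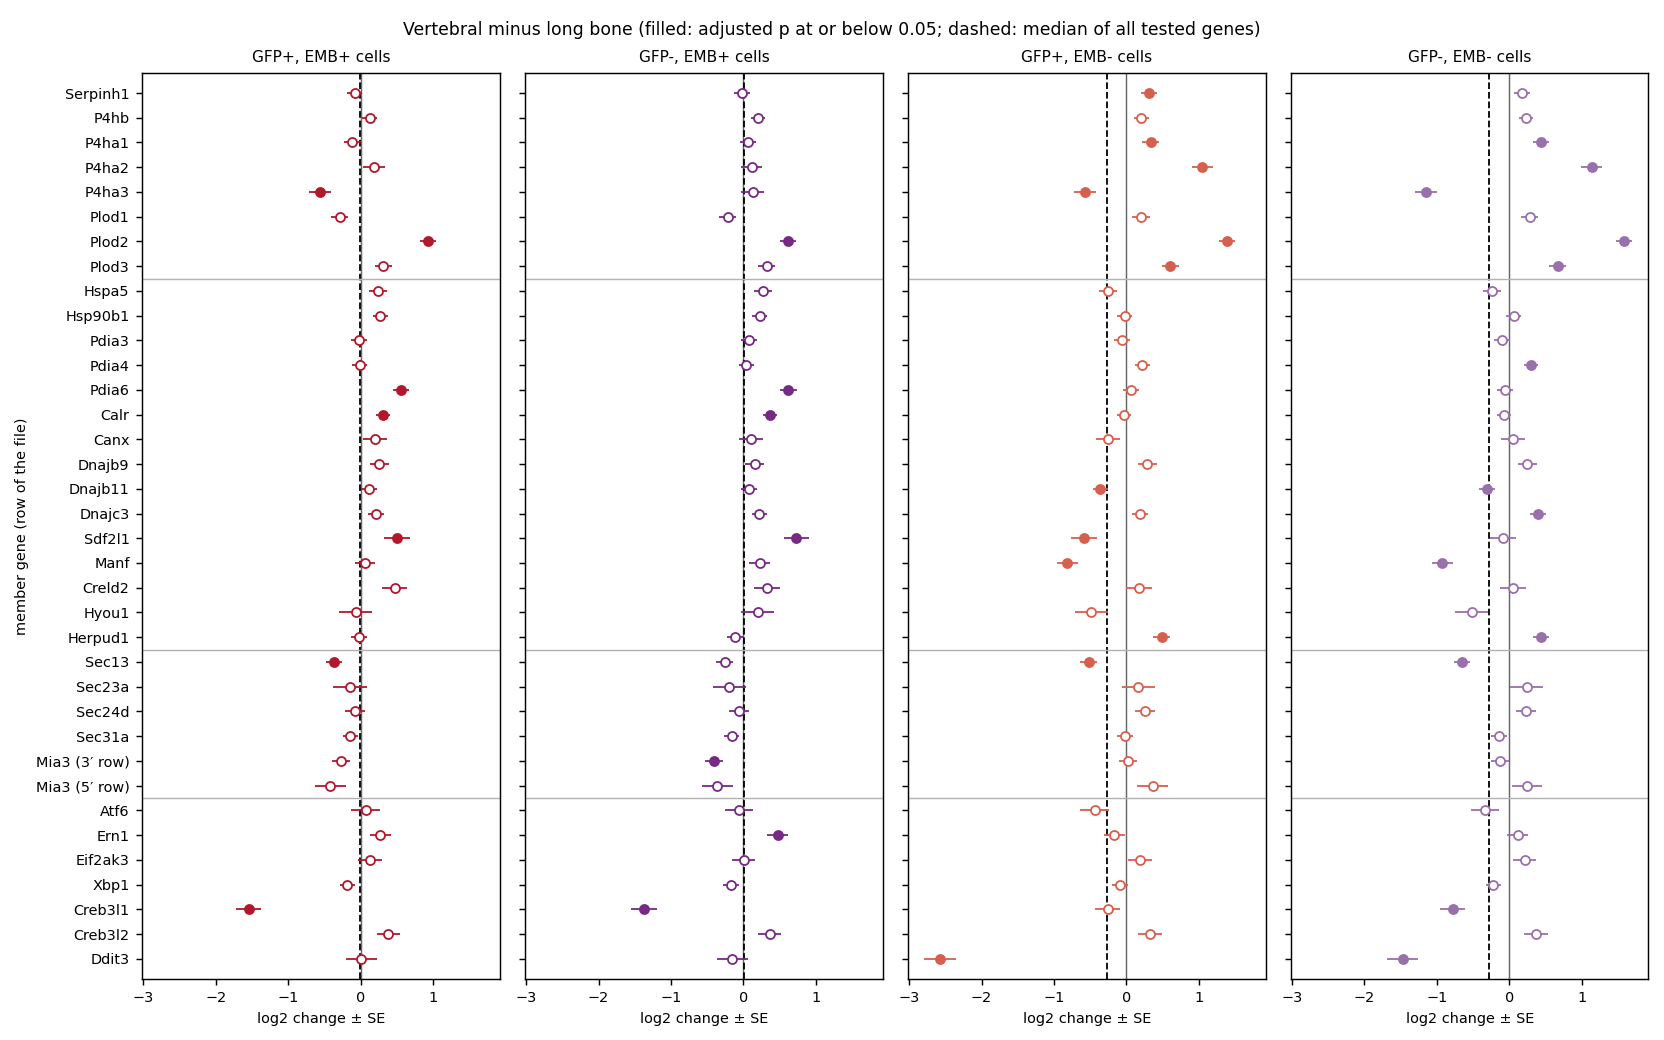
Log2 difference of FPKM + 1 between vertebral and long bone cells for the 36 member rows in 4 comparisons (vertebral GFP+ or GFP-, with or without EMB), with bars of 1 SE and filled points for an adjusted p of 0.05. Plod2 is to the right in all 4 panels, Creb3l1 to the left in the EMB+ panels and Ddit3 to the left in the EMB- panels.

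Replicate number moved with several members at the spine. Replicate 1 was the highest of 4 in all 4 vertebral groups for 11 of 36 rows (30.6%), namely P4hb, P4ha2, Plod2, Hspa5, Hsp90b1, Dnajb11, Dnajc3, Manf, Sec13, Sec24d and Xbp1, against 496 of 11768 genes (4.21%). Replicates 2, 3 and 4 were so for 0, 0 and 1 rows and for 1.2%, 0.697% and 1.47% of genes. Each replicate number has 1 library in each vertebral group.

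Over the 6 groups, Ddit3 had the widest range of group means, 6.78-fold, followed by P4ha3 (5.12-fold), Creb3l1 (3.62-fold) and Plod2 (3.01-fold). Serpinh1 ranged 2.02-fold, from 755 ± 89.5 FPKM in long bone EMB- to 1525 ± 109 FPKM in long bone EMB+ cells. Its 3 EMB+ groups (1439 ± 112, 1501 ± 122 and 1525 ± 109 FPKM) differed by less than their spread.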

How the data were processed

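RNA of sorted cells was amplified with SMART-Seq v4 and made into Nextera XT libraries, which do not mark strand, per the labels' protocols. The authors deposited FPKM values per protein-coding gene, and per the submitters' processing notes bcl2fastq 2.19, STAR 2.5.2, Cufflinks 2.1.1 and GRCm38 were used. Of 22053 rows, 45 repeating an identifier, 56 repeating a symbol and 3 with a failed estimate were left out. Read depth cannot be had from FPKM, so precision rests on the spread of 4 libraries a group. Groups follow the cell type label.

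Values were tested as log2(FPKM + 1) in limma 3.58.1 (R 4.3.3; trend and robust variance) over 24 libraries and 6 groups, for 11768 genes with FPKM of at least 1 in at least 4 libraries. Benjamini-Hochberg adjustment was made over all genes within each comparison at 0.05. On simulated data for the vertebral GFP+ EMB comparison with 11768 genes, the test recovered 86 of 100 simulated 2-fold and 98 of 100 simulated 4-fold differences. Ratios used scipy 1.17.1. Members and gene lists were chosen with earlier results of these data known. Every-library values are given for the 4 largest called members per direction in an EMB comparison or a difference of them, and for Serpinh1, Hspa5, Xbp1, Creb3l1 and Ddit3. Up to 4 members per direction are named for site and GFP, and up to 3 genes of each other list. Same-numbered vertebral libraries of different groups deviated together, with correlations over all genes of 0.0971 to 0.337. Differently numbered ones gave -0.268 to 0.136 (median -0.0892). The same-numbered values were 0.135 to 0.236 between GFP- EMB+ and GFP- EMB- and 0.0971 to 0.279 between GFP+ EMB+ and GFP+ EMB- libraries. Between GFP+ and GFP- cells of one EMB state they were 0.169 to 0.337 with EMB and 0.130 to 0.292 without. In long bone not each pair deviated together (-0.0970 to 0.296). The numbers were therefore read as possible pairing at the spine. The main fit has no block for the number, so its p-values and calls do not use that pairing. The labels give no shared source for a number, and the long bone EMB+ numbers follow the sample order. In long bone the block joined libraries with neighbouring running codes in their titles. Alternatives were pseudocounts of 0.1 and 5, no filter or FPKM of at least 5, median-ratio and quantile scaling, rescaling without hemoglobin genes, weighting of libraries, a block for the replicate number, only the compared groups, and leaving out each library. Leaving out the 4 libraries with conflicting labels was added after seeing the data.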

Additional observations from a re-analysis of the deposited data

Results flagged for a closer look

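In 13 of 216 groups of 4 values, 1 library stood apart by Dixon's criterion, where chance flags about 1 in 20. Of these, 10 were replicate 1 of a vertebral group: Hspa5 in GFP+ EMB+ (507 FPKM), GFP+ EMB- (268 FPKM) and GFP- EMB+ (489 FPKM), P4ha2 (293 FPKM) and Plod1 (152 FPKM) in GFP- EMB-, Pdia4 in GFP+ EMB- (78.4 FPKM), and Dnajc3 (31.4 FPKM), Manf (131 FPKM), Creld2 (39.1 FPKM) and Eif2ak3 (17.7 FPKM) in GFP- EMB+. The others were Sec31a in GFP- EMB+ replicate 3 (202 FPKM), and Mia3 (37.7 FPKM) and Creb3l2 (33.15 FPKM) in GFP+ EMB- replicate 2. All 13 were the highest of their group.

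The EMB difference itself differed between cells in 27 cases by limma's test of the difference. Smaller and larger again refer to the signed value of EMB+ minus EMB-. Between vertebral GFP+ and GFP- cells it did so for P4ha3 (-1.27) and Ddit3 (1.27). Between vertebral GFP+ and long bone it was smaller for Serpinh1 (-0.40), P4ha1 (-0.45), P4ha2 (-0.86), Plod1 (-0.49), Plod2 (-0.46), Herpud1 (-0.51), the 5′ row of Mia3 (-0.78) and Creb3l1 (-1.29). It was larger there for Hspa5 (0.49), Pdia6 (0.49), Dnajb11 (0.47), Sdf2l1 (1.09), Manf (0.88) and Ddit3 (2.58). Between vertebral GFP- and long bone it was smaller for P4ha2 (-1.03), Plod1 (-0.50), Plod2 (-0.97) and Herpud1 (-0.56). It was larger there for P4ha3 (1.27), Hspa5 (0.51), Pdia6 (0.68), Calr (0.43), Sdf2l1 (0.81), Manf (1.15) and Ddit3 (1.31).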

How the results depend on the processing

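Scaling moved the vertebral counts most, since the median of all genes shifted with it. Of 24 higher and 3 lower members in vertebral GFP+ EMB+ cells, median ratios gave 7 and 7 (12.9% and 14.6% of all genes) and quantile normalization 9 and 5 (14.7% and 13.6%). Of 21 and 4 in vertebral GFP- cells these gave 9 and 7 (15.3% and 19.7%), and 9 and 8 (19.9% and 17.0%). Rescaling without hemoglobin genes left 13 higher there (25.5%). In long bone, 20 higher members became 10 when only the compared groups were fitted (7.53% of the genes tested there). Leaving out 1 library gave 20 to 25 higher and 3 to 3 lower members in GFP+, 17 to 21 and 4 to 5 in GFP-, and 19 to 23 and 1 to 1 in long bone.

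For GFP, the 1 member called with EMB became 0 without hemoglobin genes, 2 with library weights and 2 with the replicate block (0 to 1 leaving out a library). The 2 without EMB became 1 at pseudocount 5, 5 with weights and 4 on the compared groups (1 to 2). For vertebral GFP+ against long bone, 7 with EMB became 11 by quantile and 13 with weights (4 to 9), and 12 without EMB became 23 by median ratios and 25 by quantile (10 to 18). For vertebral GFP-, 7 with EMB became 9 by quantile (6 to 8 leaving out a library), and 13 without became 22, 26 and, with weights, 21 (11 to 17).

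For differences of EMB differences, the 2 between GFP+ and GFP- became 4 with weights, 4 with the replicate block and 4 on the compared groups (2 to 2). The 14 of GFP+ against long bone became 7 on the compared groups (9 to 16), and the 11 of GFP- became 18 by median ratios and 17 with the replicate block (10 to 15). With that block no EMB call was lost. Creb3l1 and Plod3 were gained in both vertebral comparisons, Ddit3 and Sec23a in GFP- cells, and Creb3l2, Manf and P4ha2 in long bone. Creb3l1 and Plod2 passed in the difference between GFP+ and GFP- (Creb3l1 -0.70, adjusted p = 0.013), and Hspa5 in EMB+ cells for vertebral GFP+ (0.49) and GFP- (0.53) against long bone. Xbp1 in vertebral GFP+ against long bone EMB- cells turned from -0.09 to 0.35 by quantile normalization. Apart from scaling and the smaller fits, the cause was not tested. Depth is unknown, so low genes such as Hyou1 and Ern1 are limited by an unknown counting error.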
